A study of Mus musculus with 6 samples.

Results

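The genes described here encode the Toll-like receptors (TLRs), the NOD-like receptors (NLRs) and the proteins through which they signal, compared between macrophages of pancreatic islets and of epididymal fat. They were taken by symbol: the numbered Tlr genes, the Nlrp, Nlrc and Nlrx genes other than Nlrp3 and Nlrc5, the Naip genes, Nod1 and Nod2, and the genes of 5 accessory proteins, 4 adaptors, 4 IRAK kinases and the ligase TRAF6. This gave 56 of the 50600 genes counted, 5 of them pseudogenes. RNA was sequenced from resident macrophages, sorted as live cells positive for CD45, F4/80 and CD64, of C57BL/6J males aged 12 weeks and kept on chow, with no treatment named. There were 3 libraries of islet macrophages and 3 of macrophages from epididymal white adipose tissue, numbered 2, 4 and 6 in both tissues, and the design text calls the males autologous. The labels leave unsaid how many animals went into each islet library.

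Toll-like receptors recognise microbial products, those on the cell surface mainly lipids and proteins, and those in endosomes mainly nucleic acids. Ligand binding recruits the adaptors MyD88 or TRIF, then IRAK kinases and the ubiquitin ligase TRAF6, and leads to NF-kappaB and interferon regulatory factors. NOD-like receptors are sensors in the cytosol. NOD1 and NOD2 detect fragments of bacterial cell wall, and NAIP proteins bind flagellin or parts of bacterial secretion systems and assemble with NLRC4 into an inflammasome. Macrophages are among the cells best known for carrying these sensors.

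The promoter windows of 4 receptor genes are shown: Tlr12 and Tlr2 as the receptors that rose most in islet macrophages, Tlr9 as the one changed gene whose window holds searched motifs, and Tlr5 as the receptor that fell most. Each is RefSeq sequence of build GRCm38.p6 on the gene's own strand, with the 250 bases before the annotated start in lower case and the 50 bases from the start on in capitals. The Tlr12 window lies at chr4:128618570-128618869 (minus strand) and the Tlr2 window at chr3:83841559-83841858 (minus strand). The Tlr9 window lies at chr9:106222348-106222647 (plus strand) and the Tlr5 window at chr1:182954538-182954837 (plus strand).
Tlr12: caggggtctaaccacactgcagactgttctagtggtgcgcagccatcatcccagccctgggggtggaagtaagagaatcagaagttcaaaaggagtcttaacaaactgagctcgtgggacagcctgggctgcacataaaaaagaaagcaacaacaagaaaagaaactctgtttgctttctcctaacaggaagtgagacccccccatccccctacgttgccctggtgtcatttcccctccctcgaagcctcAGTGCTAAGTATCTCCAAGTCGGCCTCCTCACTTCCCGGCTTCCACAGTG
Tlr2: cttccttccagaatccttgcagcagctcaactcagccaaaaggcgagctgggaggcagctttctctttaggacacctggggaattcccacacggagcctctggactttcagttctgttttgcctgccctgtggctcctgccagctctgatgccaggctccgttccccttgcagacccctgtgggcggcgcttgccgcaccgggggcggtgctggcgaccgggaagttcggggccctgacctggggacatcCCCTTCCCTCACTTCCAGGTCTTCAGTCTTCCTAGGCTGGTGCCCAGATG
Tlr9: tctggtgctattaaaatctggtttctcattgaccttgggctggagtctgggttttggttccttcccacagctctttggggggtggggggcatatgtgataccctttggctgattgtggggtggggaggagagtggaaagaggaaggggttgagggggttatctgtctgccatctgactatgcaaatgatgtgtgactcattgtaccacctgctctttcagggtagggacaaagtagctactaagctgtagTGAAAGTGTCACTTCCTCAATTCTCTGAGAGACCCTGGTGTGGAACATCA
Tlr5: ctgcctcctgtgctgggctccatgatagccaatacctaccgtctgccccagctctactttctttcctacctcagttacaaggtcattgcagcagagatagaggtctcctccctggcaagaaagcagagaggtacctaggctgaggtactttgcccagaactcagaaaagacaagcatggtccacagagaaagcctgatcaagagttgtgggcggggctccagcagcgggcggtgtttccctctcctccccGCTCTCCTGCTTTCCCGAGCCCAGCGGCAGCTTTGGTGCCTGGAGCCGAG

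RefSeq windows were matched to 43 of the 56 genes by symbol, with the first listed start taken for each gene. Windows on chromosome 18, where Cd14 and Ticam2 lie, were left out. In the windows kept, 6 motifs were searched on both strands. In the Tlr9 window an AP-1 motif (TGANTCA) began at base -58 and a PU.1 motif (GAGGAAGT) at base 11, counted from the annotated start. AP-1 is a dimer of Fos and Jun proteins and PU.1 a lineage factor of macrophages. Of all 32851 promoter windows, 7.81% held the AP-1 motif and 3.2% the PU.1 motif, against 5 and 6 of the 43 windows here. The windows of Tlr2, Tlr5, Tlr8, Tlr12, Tlr13, Irak2, Ticam1, Ly86 and Naip6, the other changed genes with a window, held neither. They also held no MiT E-box (CACGTGA, in 3.77% of all windows). The same was true of the searched form of a kappaB motif (10 letters), an interferon response motif of 10 letters and a heat shock motif of 13 letters. Some of these letters are unspecified, and 1.63%, 3.44% and 0.603% of all windows held the motifs. The kappaB form was a run of G, unspecified letters, a run of T and a run of C. In the Tlr2 window a run of G is followed by A, T and a run of C, which this form does not match. Other forms of kappaB site were not searched, so their presence in these windows was not tested. Among tested genes that did not pass, the Tlr3 window held a kappaB motif at base -211 and the Irak3 window a MiT E-box at base 5. PU.1 motifs lay at base -23 for Tlr1, -83 for Nlrp1a, -96 for Nlrp1b and -133 for Tlr11. Interferon response motifs lay at base -40 for Myd88, -122 for Tlr11, and -116 and -110 for Tlr6. The AP-1 windows besides that of Tlr9 belonged to Nlrp4b, Nlrp4f, Nlrp5 and Nlrp6, which were not tested. For Tlr6, Irak3 and Nlrp5 the window used lay downstream of another listed start, whose window held none of the 6 motifs. Further windows of Tlr1 and Nlrp1b also held none, while a further window of Nlrp4a held an AP-1 motif. A match is a description of letters and not a bound site, and no match says only that these letters are not in this window.

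Total counts were 4089980 to 6923475 in the islet libraries and 7450890 to 9235591 in the fat libraries, and the 56 genes together took 0.329% to 0.404% of counts in islet and 0.271% to 0.334% in fat. Levels are CPM (counts scaled to 1000000 per library), on library sizes adjusted by TMM, a factor that corrects for unequal RNA make-up. Ptprc, Adgre1 and Fcgr1, which encode the sorted proteins CD45, F4/80 and CD64, were present in every library. Islet libraries 2 and 4 stood apart: heat shock genes took 7.61% of counts in library 2, 9.15% in library 4 and 0.571% in library 6, against 0.0739% to 0.0879% in the fat libraries. Monocyte markers, mainly Fn1 and Ccr2, took 0.00511% to 0.0119% in islet and 0.0782% to 0.253% in fat, with Ly6c2 at 0 in islet. Neutrophil markers stayed at or below 4.43e-04% in every library, with Ly6g and Ngp at 0. Endocrine markers such as the insulin genes took 0.366% to 0.775% in islet and at most 6.04e-04% in fat.

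Islet and fat macrophages differed in the levels of 7 of the 12 TLR genes. Tlr2, Tlr9, Tlr12 and Tlr13 rose in islet macrophages, Tlr5, Tlr7 and Tlr8 fell, and Tlr1, Tlr3, Tlr4, Tlr6 and Tlr11 did not pass the test. Outside the receptors, Ticam1, Irak2 and Ly86 rose, and among 11 tested NLR genes only Naip6 passed, in the direction of lower in islet. In all, 37 of the 56 genes had enough counts to be tested, and 7 were higher and 4 lower in islet at a Benjamini-Hochberg adjusted p under 0.05 (edgeR's quasi-likelihood test over 12152 genes). Over all genes tested, 19.4% were called, 8.97% higher and 10.5% lower. Tlr5, Tlr11 and Nlrc3 passed the filter on low counts through fat alone and Tlr12 through islet alone, so the count of called genes is a description. The median log2 difference, islet minus fat, was 0.23 over the 37 genes and 0.01 over all genes tested. In bulk RNA, fewer cells that carry a transcript and less of it per cell cannot be told apart. Where libraries did not come from separate animals, p-values measure only the spread between libraries, which may be technical.

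**Figure D1:**
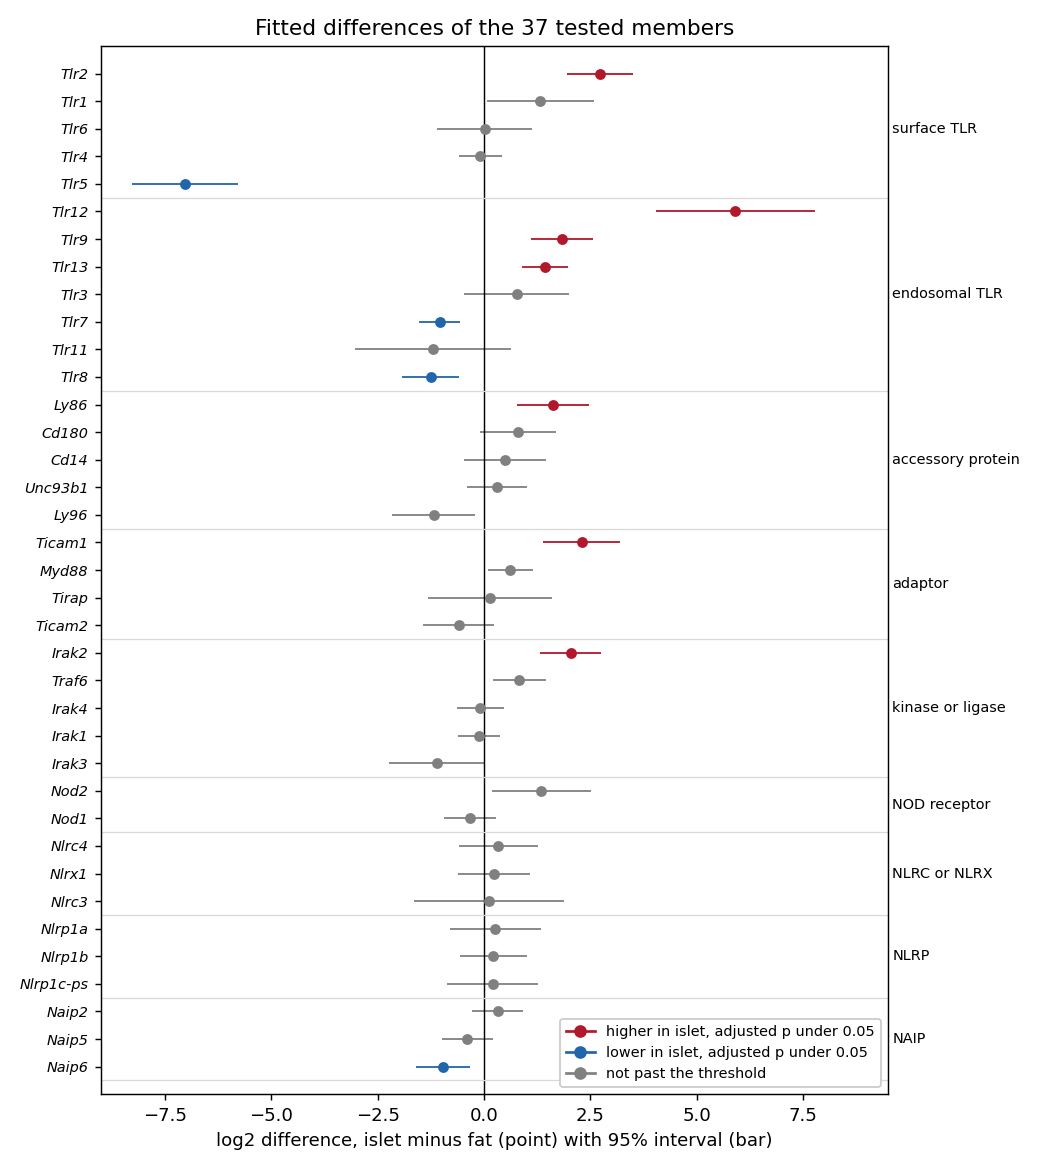
Fitted log2 difference, islet minus fat, for the 37 tested genes, grouped by role, with bars for the 95% interval and colour for genes past the threshold. The 7 genes higher in islet range from 1.43 (Tlr13) to 5.91 (Tlr12), and Tlr5 lies alone at -7.03.

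Among receptors of the cell surface, Tlr2 and Tlr5 differed in opposite directions. Tlr5, the flagellin receptor (ENSMUSG00000079164.8, chromosome 1, 182954788 to 182976044, plus strand, GRCm38), was at 2.02, 0.573 and 0.269 CPM in islet libraries 2, 4 and 6, against 128, 117 and 121 CPM in fat libraries 2, 4 and 6. The islet values rest on 10, 2 and 2 counts and the fat values on 1349, 880 and 1026, and the groups lie far apart. Means were 0.953 ± 0.933 CPM for islet and 122 ± 5.47 CPM for fat macrophages (SD, n = 3 each), a fitted 131-fold lower level in islet (log2 -7.03 ± 0.55, SE; edgeR adjusted p = 1.26e-04). Without islet replicate 2 the fitted log2 difference was -8.29, without islet replicate 6 it was -6.44, and with islet libraries 2 and 4 left out it was -8.82. The last of these settings, used again below, leaves 1 islet library and so holds no spread between islet libraries. Markers of several other cell types also took smaller shares of counts in islet, monocyte markers by the values above. Conventional dendritic cell markers took 0.00244% to 0.00396% in islet and 0.00858% to 0.0111% in fat. Most of the fat share was Cd209a and Zbtb46, both lower in islet, while Dpp4 was higher (log2 1.91, edgeR adjusted p = 0.0234). Ccr7 lay above fat in each islet library without passing (adjusted p = 0.173), and Flt3, Clec9a and Xcr1 overlapped. Endothelial markers took 6.36e-04% to 0.00250% in islet and 0.00278% to 0.0177% in fat. Fibroblast or mesothelial markers took 5.02e-05% to 5.49e-04% in islet and 0.00964% to 0.0435% in fat, and adipocyte markers were at 0 in islet and took 0.00212% to 0.00603% in fat. The part of these cells in the lower levels of Tlr5, and of Tlr7 and Tlr8 below, was not tested.

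Tlr2, which binds bacterial lipoproteins as a partner of TLR1 or TLR6 (ENSMUSG00000027995.10, chromosome 3, 83836272 to 83841767, minus strand), was at 729.7, 379 and 342 CPM in islet libraries 2, 4 and 6, against 74.0, 70.5 and 74.2 CPM in fat libraries 2, 4 and 6. Every islet library lay above every fat library, and islet library 2 was the highest. Means were 483 ± 214 CPM for islet and 72.9 ± 2.13 CPM for fat macrophages (SD, n = 3 each), 6.63-fold higher in islet (log2 2.73 ± 0.34, edgeR adjusted p = 0.00111). With islet libraries 2 and 4 left out, which held the most heat shock RNA, the log2 difference was 2.15.

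The partners of Tlr2 gave no call. Tlr1 was at 16.3, 30.4 and 89.6 CPM in islet libraries 2, 4 and 6, against 15.7, 19.9 and 19.1 CPM in fat libraries 2, 4 and 6 (log2 1.33 ± 0.55, edgeR adjusted p = 0.132). The groups overlap, and islet library 6 lay far above the other two islet libraries. Without islet replicate 2 the adjusted p of Tlr1 was 0.0457, and with no filter on low counts it was 0.00413. Tlr6 was at 14.3, 4.87 and 15.8 CPM in islet and 10.6, 15.8 and 8.47 CPM in fat libraries 2, 4 and 6 (log2 0.02 ± 0.49, adjusted p = 0.983). Tlr1 and Tlr6 are neighbours on chromosome 5, 18.5 kb apart, and 15.4% and 12.3% of their 50-base words occur in other genes' transcripts, mostly in each other, so that some reads could be counted for neither or for the wrong one. Tlr4, the lipopolysaccharide receptor, was at 99.6, 95.5 and 78.5 CPM in islet and 86.0, 95.8 and 108 CPM in fat. Its groups overlap, and the 95% interval of the log2 difference ran from -0.59 to 0.42 (edgeR adjusted p = 0.831).

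**Figure D2:**
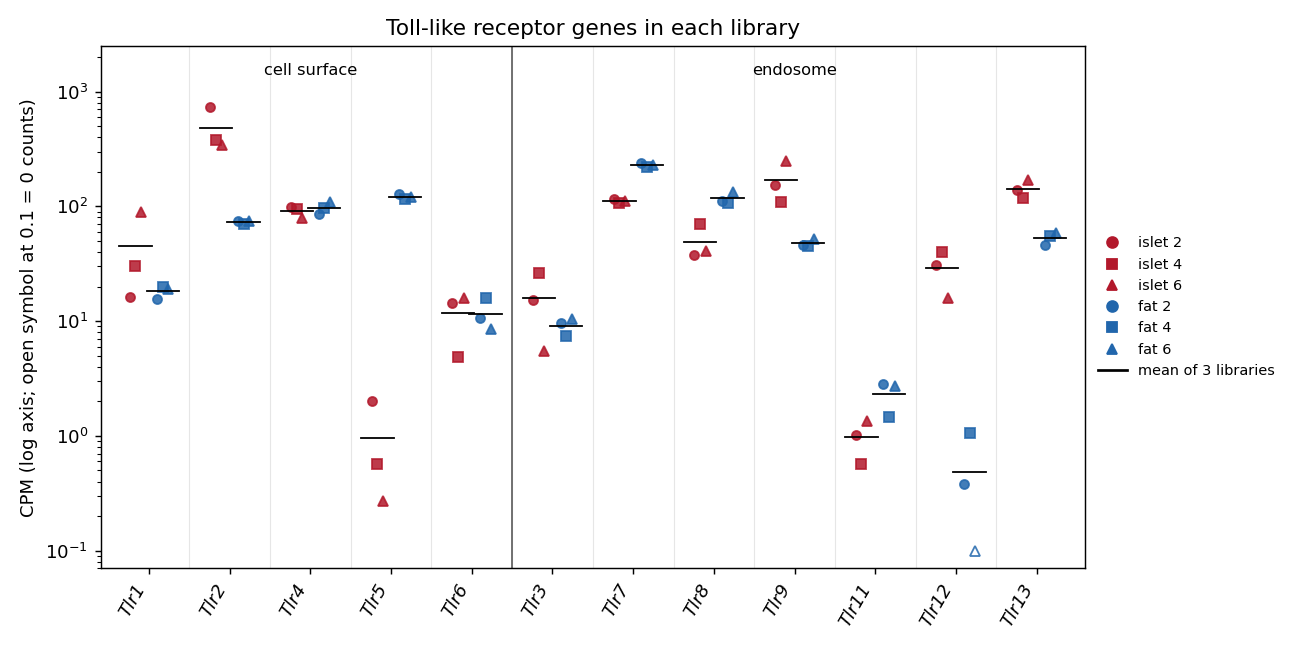
CPM of the 12 TLR genes in each library, on a log axis, with islet libraries left of fat libraries for each gene, a line at the mean of 3 libraries and an open symbol for 0 counts. Tlr5 lies at 2.02 CPM or below in islet and at 117 CPM or above in fat, while Tlr4 overlaps between 78.5 and 108 CPM.

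Of the 7 endosomal receptors, 3 rose and 2 fell in islet macrophages. The share called was 71.4%, against 19.4% of all genes tested, and is a description. Tlr12, which with TLR11 binds profilin of protozoan parasites in mice (ENSMUSG00000062545.4, chromosome 4, 128615443 to 128618619, minus strand), was at 30.6, 40.1 and 16.0 CPM in islet libraries 2, 4 and 6, against 0.378, 1.06 and 0 CPM in fat libraries 2, 4 and 6. These are 152, 140 and 119 counts in islet and 4, 8 and 0 counts in fat, where 3 counts correspond to 0.284 to 0.398 CPM. The groups lie far apart, with all fat libraries near the detection limit. Means were 28.9 ± 12.1 CPM for islet and 0.480 ± 0.538 CPM for fat macrophages (SD, n = 3 each), a fitted 60.1-fold higher level (log2 5.91 ± 0.83, edgeR adjusted p = 0.00175). The log2 difference was 6.95 without fat replicate 4 and 4.996 with islet libraries 2 and 4 left out. Tlr11 was at 1.01, 0.573 and 1.35 CPM in islet and 2.84, 1.46 and 2.71 CPM in fat libraries 2, 4 and 6, on 2 to 10 counts in islet and 11 to 30 in fat. All its islet values lay below its fat values, and the difference did not pass the test (log2 -1.21 ± 0.81, adjusted p = 0.349).

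Tlr9, the receptor of unmethylated CpG DNA (ENSMUSG00000045322.10, chromosome 9, 106222598 to 106226883, plus strand), was at 153, 109 and 249 CPM in islet libraries 2, 4 and 6, against 46.4, 45.1 and 51.6 CPM in fat libraries 2, 4 and 6. No islet library overlapped with fat, and islet library 6 was the highest. Means were 170.3 ± 71.7 CPM for islet and 47.7 ± 3.45 CPM for fat macrophages (SD, n = 3 each), 3.57-fold higher in islet (log2 1.84 ± 0.32, edgeR adjusted p = 0.00499). B cells and plasmacytoid dendritic cells also carry this receptor. B cell markers took 0.00407% to 0.0189% of counts in islet and 0.0191% to 0.0269% in fat, nearly all of it Ighm, whose CPM overlapped between the tissues. Cd79a and Iglc2 were at 0 counts in islet and at 0 to 2 in the fat libraries. Ms4a1 was at 0, 8 and 1 counts in islet and 3, 0 and 0 in fat libraries 2, 4 and 6. Plasmacytoid dendritic cell markers took 0.0134% to 0.0227% in islet and 0.00272% to 0.00391% in fat, nearly all of it Siglech, with Klk1 at 0 in both tissues and Pacsin1 and Spib at 0 in islet, and their part in the Tlr9 difference was not tested.

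Tlr13, which senses bacterial ribosomal RNA in mice (ENSMUSG00000033777.3, chromosome X, 106143204 to 106160493, plus strand), was at 139, 119 and 169 CPM in islet libraries 2, 4 and 6, against 46.1, 54.9 and 58.0 CPM in fat libraries 2, 4 and 6. The lowest islet library lay above the highest fat library. Means were 142 ± 25.5 CPM for islet and 53.0 ± 6.15 CPM for fat macrophages (SD, n = 3 each), 2.69-fold higher in islet (log2 1.43 ± 0.24, edgeR adjusted p = 0.00394).

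Tlr7 and Tlr8, neighbours 40.6 kb apart on chromosome X, both fell. Tlr7, a receptor of single-stranded RNA (ENSMUSG00000044583.13, chromosome X, 167304929 to 167330558, minus strand), was at 115, 107 and 112 CPM in islet libraries 2, 4 and 6, against 237, 219 and 231 CPM in fat libraries 2, 4 and 6. The libraries of each tissue were close together and the tissues did not overlap. Means were 111 ± 4.20 CPM for islet and 229 ± 9.46 CPM for fat macrophages (SD, n = 3 each), 2.06-fold lower in islet (log2 -1.04 ± 0.21, edgeR adjusted p = 0.0100). Tlr7 did not pass without fat replicate 2 (0.0606) or 6 (0.0525).

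Tlr8, related to Tlr7 (ENSMUSG00000040522.5, chromosome X, 167242696 to 167264329, minus strand), was at 37.7, 69.7 and 40.6 CPM in islet libraries 2, 4 and 6, against 110.4, 107 and 135 CPM in fat libraries 2, 4 and 6. All islet values lay below the fat values, with islet library 4 the nearest to them. Means were 49.3 ± 17.7 CPM for islet and 117 ± 15.0 CPM for fat macrophages (SD, n = 3 each), 2.39-fold lower in islet (log2 -1.26 ± 0.29, edgeR adjusted p = 0.0175). The call was lost when islet replicate 2 (0.0608) or any of fat replicates 2 (0.0645), 4 (0.0549) and 6 (0.0788) was left out. Tlr3, the receptor of double-stranded RNA, was at 15.3, 26.4 and 5.52 CPM in islet and 9.64, 7.43 and 10.4 CPM in fat libraries 2, 4 and 6. The groups overlap, since islet library 6 lay below every fat library (log2 0.76 ± 0.54, adjusted p = 0.377), and without islet replicate 6 the adjusted p was 0.0423.

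Levels of different receptors were set against each other per kilobase of exon (CPM divided by the length of the merged exons). As a share of the summed per-kilobase level of the 12 TLR genes, Tlr2 made up 61.0% in library 2, 45.6% in library 4 and 36.0% in library 6 of islet, against 12.9%, 12.5% and 12.2% in the fat libraries of these numbers. Tlr7 made up 7.11%, 9.49% and 8.70% in islet and 30.6%, 28.7% and 28.0% in fat. Tlr2 thus led in every islet library and Tlr7 in every fat library. Tlr9 held 11.1% to 22.8% in islet and 6.95% to 7.33% in fat, and Tlr13 held 8.14% to 12.5% in islet and 5.64% to 6.84% in fat. Tlr8 held 2.65% to 7.04% in islet and 16.0% to 18.5% in fat, and Tlr5 held 0.0179% to 0.106% in islet and 12.4% to 14.0% in fat. These shares sum to a whole, so a large share of one gene lowers that of the others.

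**Figure D3:**
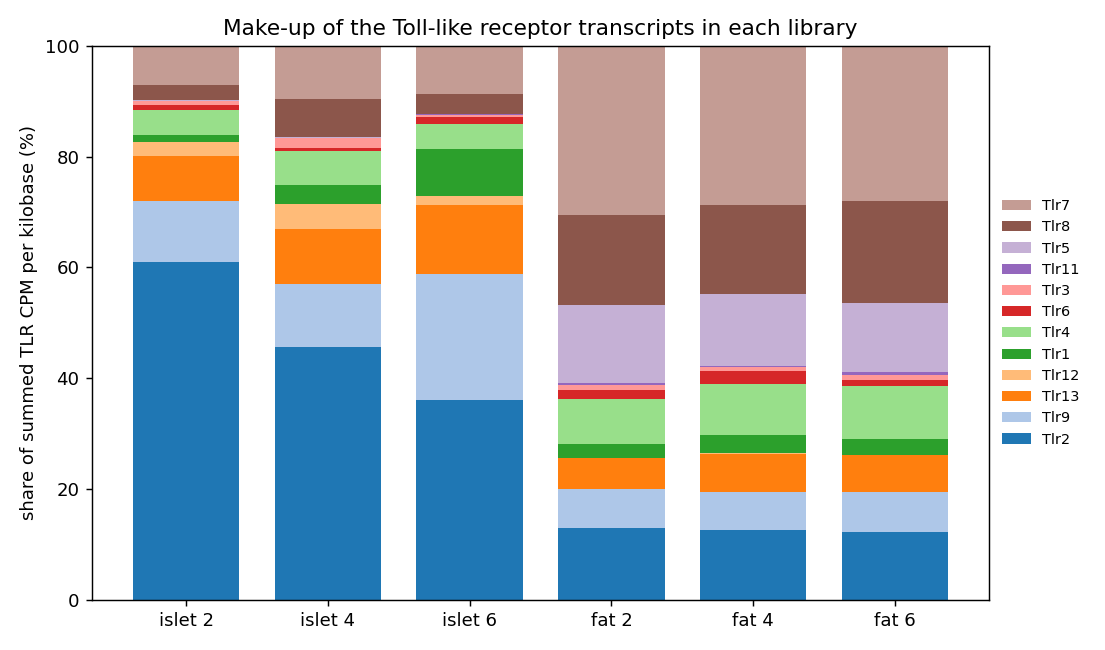
Share of each TLR gene in the summed per-kilobase level of the 12 TLR genes, in percent, 1 bar a library, with the islet libraries left of the fat libraries. Tlr2 takes 36.0% to 61.0% of the islet bars, and Tlr7, Tlr8 and Tlr5 take more of each fat bar than of any islet bar.

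Of the 5 co-receptor and accessory genes, Ly86 passed the test. Unc93b1, which carries nucleic acid receptors to endosomes, had the highest per-kilobase level of the 56 genes in both tissues, at 349 in islet and 282 in fat (mean CPM per kilobase), and Cd14 followed at 281 in islet and 201 in fat. Neither differed beyond the threshold (Unc93b1 log2 0.31 ± 0.31, adjusted p = 0.544). Cd14, a co-receptor that hands lipopolysaccharide to TLR4, was at 433, 224 and 804 CPM in islet libraries 2, 4 and 6, against 329.9, 325 and 389 CPM in fat libraries 2, 4 and 6 (log2 0.49 ± 0.42, adjusted p = 0.479). Its islet libraries spread on both sides of the fat libraries. Ly96 encodes MD-2, the lipopolysaccharide-binding partner of TLR4. It was at 8.06, 5.45 and 4.18 CPM in islet and 12.4, 17.1 and 10.5 CPM in fat libraries 2, 4 and 6, without overlap, and did not pass (log2 -1.18 ± 0.43, 95% interval -2.15 to -0.20, adjusted p = 0.0918).

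Ly86 and Cd180 encode MD-1 and RP105, a pair related to MD-2 and TLR4. Ly86 (ENSMUSG00000021423.5, chromosome 13, 37345208 to 37419036, plus strand) was at 321, 398 and 142 CPM in islet libraries 2, 4 and 6, against 83.3, 93.9 and 103 CPM in fat libraries 2, 4 and 6. The groups did not overlap, and islet library 6, the one with the least heat shock RNA, was the nearest to fat. Means were 287 ± 132 CPM for islet and 93.5 ± 9.94 CPM for fat macrophages (SD, n = 3 each), 3.07-fold higher in islet (log2 1.62 ± 0.37, edgeR adjusted p = 0.0169). With islet libraries 2 and 4 left out the log2 difference was 0.52. The call was lost there, and also when islet replicate 2 (adjusted p = 0.0575) or any of fat replicates 2 (0.0955), 4 (0.0898) and 6 (0.0668) was left out. Cd180 was at 46.0, 45.0 and 119 CPM in islet and 40.8, 35.8 and 44.7 CPM in fat libraries 2, 4 and 6. Islet library 6 lay far above the rest, and the other two islet libraries just above the highest fat library (log2 0.80 ± 0.39, adjusted p = 0.200). With islet libraries 2 and 4 left out, log2 differences were 1.13 for Cd14, 1.48 for Cd180, -1.75 for Ly96 and 0.77 for Myd88. Those values rest on islet library 6 alone.

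Of the 4 adaptors, Ticam1 rose. Ticam1, which encodes TRIF, the adaptor of TLR3 and of TLR4 in endosomes (ENSMUSG00000047123.8, chromosome 17, 56269319 to 56276786, minus strand), was at 181, 88.0 and 71.1 CPM in islet libraries 2, 4 and 6, against 18.0, 29.5 and 22.0 CPM in fat libraries 2, 4 and 6. Each islet library lay above each fat library, and islet library 2 was the highest. Means were 114 ± 59.4 CPM for islet and 23.1 ± 5.83 CPM for fat macrophages (SD, n = 3 each), 4.91-fold higher in islet (log2 2.30 ± 0.40, edgeR adjusted p = 0.00465). With islet libraries 2 and 4 left out the log2 difference was 1.55.

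The other adaptors did not pass. Myd88, the adaptor of all TLRs but TLR3, was at 85.3, 77.1 and 104 CPM in islet libraries 2, 4 and 6, against 59.0, 50.3 and 63.9 CPM in fat libraries 2, 4 and 6, with no overlap (log2 0.62 ± 0.23, 95% interval 0.09 to 1.15, adjusted p = 0.0979). Of its exon bases, 11.3% overlap Acaa1a on the other strand, and the strand setting of the counting is not given. Ticam2, which encodes TRAM and links TRIF to TLR4, was at 30.6, 11.2 and 25.1 CPM in islet and 31.5, 37.7 and 32.6 CPM in fat (log2 -0.60 ± 0.37, adjusted p = 0.307). Its islet values lay below its fat values, islet library 2 by little, and 14.5% of its exon bases overlap Tmed7 on the same strand. Tirap, which bridges MyD88 to TLR2 and TLR4, was at 15.3, 2.58 and 22.2 CPM in islet and 9.64, 9.95 and 17.5 CPM in fat, with full overlap (log2 0.13 ± 0.64, adjusted p = 0.910).

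**Figure D4:**
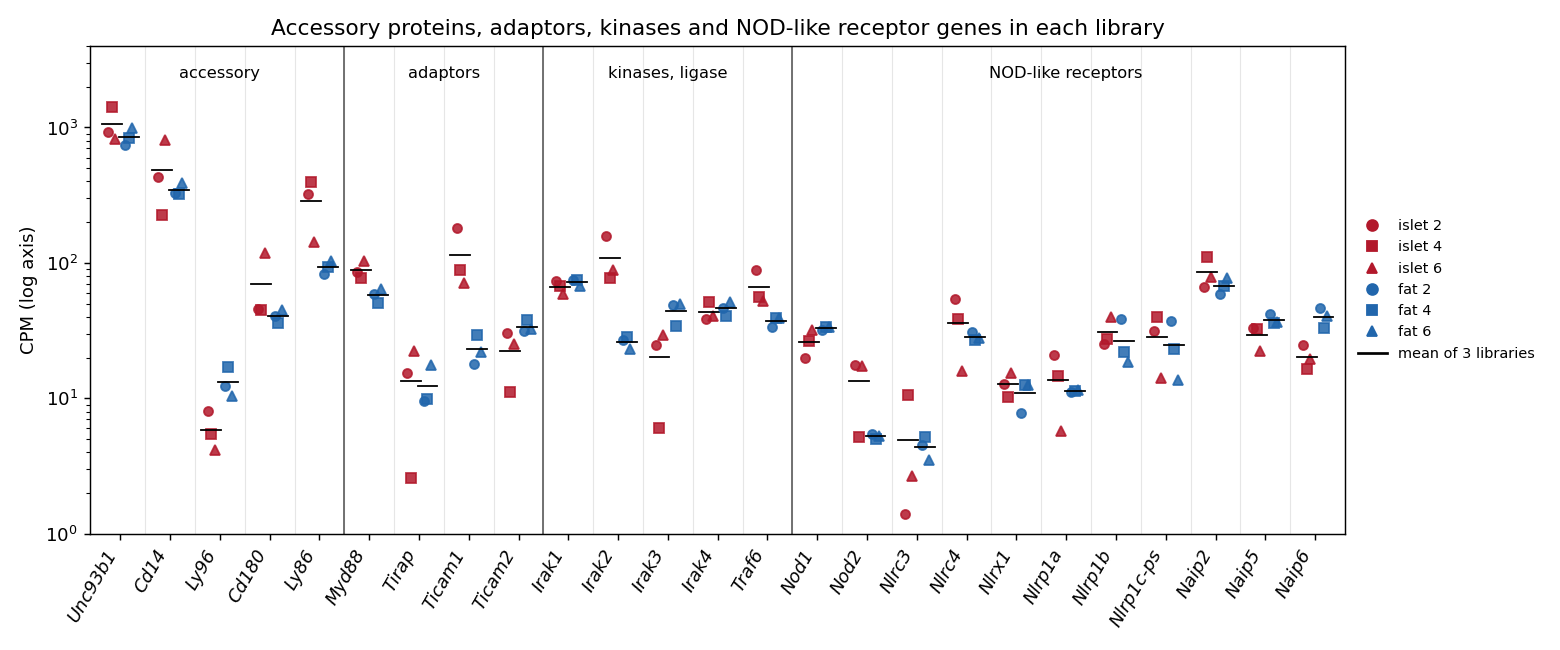
CPM of accessory proteins, adaptors, kinases and NLR genes in each library, on a log axis, with islet libraries left of fat libraries and a line at the mean. Ticam1 and Irak2 lie at 71.1 CPM or above in islet and at 29.5 CPM or below in fat, while Irak1 and Irak4 overlap.

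Among the kinases and the ligase, Irak2 rose. IRAK2 sustains signalling downstream of IRAK4 (ENSMUSG00000060477.14, chromosome 6, 113638467 to 113695026, plus strand), and its gene was at 158, 77.1 and 88.4 CPM in islet libraries 2, 4 and 6, against 27.0, 28.5 and 23.3 CPM in fat libraries 2, 4 and 6. All islet libraries lay above the fat libraries. Means were 108 ± 43.9 CPM for islet and 26.3 ± 2.70 CPM for fat macrophages (SD, n = 3 each), 4.10-fold higher in islet (log2 2.04 ± 0.32, edgeR adjusted p = 0.00298), and the log2 difference was 1.67 with islet libraries 2 and 4 left out.

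Irak1 and Irak4, kinases that MyD88 recruits, gave 95% intervals of the log2 difference of -0.62 to 0.37 and -0.64 to 0.47 (adjusted p = 0.733 and 0.846). Their levels overlapped, with Irak4 at 38.3, 51.9 and 40.7 CPM in islet and 46.3, 40.6 and 51.6 CPM in fat libraries 2, 4 and 6. Irak3, which encodes IRAK-M, an inhibitor of this step, was at 24.6, 6.02 and 29.6 CPM in islet and 48.7, 34.1 and 49.4 CPM in fat libraries 2, 4 and 6. It was lower in each islet library, lowest in library 4, but did not pass (log2 -1.12 ± 0.49, adjusted p = 0.156). Without islet replicate 6 its adjusted p was 0.0462, and with no filter on low counts 0.0104. Traf6 was at 88.9, 56.5 and 52.4 CPM in islet and 33.6, 39.0 and 38.9 CPM in fat, above fat in each islet library without passing (log2 0.83 ± 0.27, 95% interval 0.20 to 1.45, adjusted p = 0.0668), and its adjusted p was 0.0198 without islet replicate 6.

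Of 30 NLR genes, 11 were tested. None rose (1 at an unadjusted p under 0.05, and 0 by DESeq2 and by limma voom) and 1 fell, 9.09% of those tested against 19.4% of all genes, with a median log2 difference of 0.22 against 0.39 for the 12 TLR genes. Naip6 (ENSMUSG00000078942.10, chromosome 13, 100281121 to 100317674, minus strand), a paralogue of the flagellin sensor gene Naip5, was at 24.8, 16.6 and 19.7 CPM in islet libraries 2, 4 and 6, against 46.3, 33.0 and 40.4 CPM in fat libraries 2, 4 and 6. All islet libraries lay below the fat libraries. Means were 20.4 ± 4.13 CPM for islet and 39.9 ± 6.66 CPM for fat macrophages (SD, n = 3 each), 1.96-fold lower in islet (log2 -0.97 ± 0.28, edgeR adjusted p = 0.0400). The call was lost with the replicate number as a block (0.0564), when islet replicate 4 (0.0649) was left out, and when any of fat replicates 2 (0.186), 4 (0.0706) and 6 (0.126) was. Of its 50-base words, 21.5% occur in other genes' transcripts, mainly of Naip5, so its level is uncertain.

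Naip5 was at 32.9, 32.7 and 22.2 CPM in islet and 41.7, 36.0 and 36.9 CPM in fat libraries 2, 4 and 6, below fat in each islet library without passing (log2 -0.39 ± 0.26, adjusted p = 0.354), and 36.8% of its words are shared. Islet library 6, the one that remains with islet libraries 2 and 4 left out, lay furthest below fat. Naip2, a sensor of secretion system rods, was at 66.1, 111 and 78.5 CPM in islet and 59.4, 67.5 and 76.8 CPM in fat, with overlap (log2 0.32 ± 0.26, adjusted p = 0.443). Nlrc4, which assembles with the NAIP proteins, was at 54.2, 38.7 and 16.0 CPM in islet and 30.8, 26.8 and 28.1 CPM in fat. Islet libraries 2 and 4 lay above fat and library 6 below (log2 0.34 ± 0.41, adjusted p = 0.614). With islet libraries 2 and 4 left out the log2 difference turned to -0.91.

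Nod2, the muramyl dipeptide sensor, was at 17.7, 5.16 and 17.2 CPM in islet libraries 2, 4 and 6, against 5.48, 5.04 and 5.29 CPM in fat libraries 2, 4 and 6. Islet libraries 2 and 6 lay above fat and library 4 within it (log2 1.35 ± 0.51, adjusted p = 0.102). Without islet replicate 4 the adjusted p was 0.0113. Nod1 was at 19.8, 26.7 and 31.8 CPM in islet and 32.0, 33.7 and 33.4 CPM in fat, below fat in each islet library, by least in library 6 (log2 -0.34 ± 0.27, adjusted p = 0.436). Nlrc3 was at 1.41, 10.6 and 2.69 CPM in islet and 4.54, 5.17 and 3.53 CPM in fat, with overlap (adjusted p = 0.935). Nlrx1, which encodes a mitochondrial NLR, was at 12.7, 10.3 and 15.5 CPM in islet and 7.85, 12.5 and 12.6 CPM in fat, also with overlap (adjusted p = 0.710). Of 20 NLRP genes, only Nlrp1a, Nlrp1b and the pseudogene Nlrp1c-ps were tested. Their fitted log2 differences were 0.20 to 0.27 and their groups overlapped. Neither these 3 genes nor Nlrc3, Nlrc4 and Nlrx1 had an unadjusted p under 0.05, and DESeq2 and limma voom called 0 of them.

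For 12 NLRP genes there was no count in any library: Nlrp2, Nlrp4a, Nlrp4b, Nlrp4c, Nlrp4d, Nlrp4e, Nlrp4g, Nlrp5, Nlrp9a, Nlrp9b, Nlrp9c and Nlrp14. A further 7 genes had counts too low for the test, at most 36 over all libraries. Nlrp10 had 1 count in islet library 2 and 0 in the others, against 15, 14 and 4 counts in fat libraries 2, 4 and 6. Naip1 had 2, 0 and 0 counts in islet and 8, 1 and 25 in fat. Nlrp5-ps, Nlrp4f, Naip3, Nlrp6 and Nlrp12 had 0 in islet and 1 to 8 counts in at least 1 fat library. A count of 0 allows up to 3 counts, or 0.404 to 0.860 CPM in the islet libraries, and counting error alone is covered by this limit.

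CPM did not overlap between the tissues for 20 of the 37 tested genes, 10 with islet above and 10 with islet below, against 40.6% of all genes tested, 18.2% above and 22.3% below. Ratios within a library do not depend on its scaling. Of 10 ratios formed, some are given per kilobase as a description, for pairs chosen after the values were seen. An exact permutation test of 3 against 3 libraries cannot give a p under 0.1, so none could pass. Tlr2 over Tlr4 was 7.32 to 13.5 in islet and 1.26 to 1.59 in fat, and Tlr9 over Tlr7 was 1.20 to 2.62 in islet and 0.230 to 0.262 in fat. Irak2 over Irak1 was 1.22 to 2.31 in islet and 0.369 to 0.405 in fat, and Ticam1 over Myd88 was 0.590 to 1.83 in islet and 0.262 to 0.504 in fat. Tlr7 over Tlr8 overlapped, at 1.35 to 2.69 in islet and 1.51 to 1.88 in fat. Cd180 over Ly86, Tlr1 over Tlr6 and Naip2 over Naip5 also overlapped, while Cd14 over Ly96 and Tlr4 over Ly96 did not.

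The wider pathway was described from 5 lists of 84 genes in all, 79 of them tested. In islet 15 were higher and 11 lower, 32.9% called against 19.4% of all genes. Because the lists were chosen with earlier results of these data known, this share is a description only. With RLE size factors, another scaling, 10 were higher and 11 lower. Of 11 tested genes of receptor folding and trafficking, 3 rose and 1 fell. Ctss, which encodes cathepsin S, a protease that can cut endosomal TLRs, averaged 8278 ± 2389 CPM for islet and 853 ± 146 CPM for fat macrophages (SD, n = 3 each; log2 3.28 ± 0.38, edgeR adjusted p = 7.08e-04). Ctsl, which encodes cathepsin L, averaged 78.2 ± 16.4 CPM for islet and 191 ± 24.8 CPM for fat macrophages (log2 -1.29 ± 0.25, adjusted p = 0.00755). Slc15a3, a lysosomal peptide transporter gene, and Hsp90b1, whose product gp96 folds TLRs, rose with log2 1.93 ± 0.47 and log2 0.90 ± 0.27 (adjusted p = 0.0218 and 0.0470). With any single fat library left out, 1 of the 11 was higher. The median log2 difference of this list was 0.58, against 0.01 over all genes tested.

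Of 8 tested genes of ligand capture, 1 rose and 3 fell. Msr1, a scavenger receptor gene, averaged 26.5 ± 6.51 CPM for islet and 135 ± 19.5 CPM for fat macrophages (log2 -2.35 ± 0.27, edgeR adjusted p = 7.27e-04). Itgam, which encodes the integrin CD11b, and Cd36, which encodes a scavenger receptor that works with TLR2, fell with log2 -2.12 ± 0.30 and log2 -1.93 ± 0.32 (adjusted p = 0.00192 and 0.00349). Clec7a, which encodes the beta-glucan receptor Dectin-1, rose (log2 1.23 ± 0.29, adjusted p = 0.0196). The list's median log2 difference was 0.33. No gene of it was higher with islet library 2 or any single fat library left out, and 3 were higher with islet libraries 2 and 4 left out.

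Downstream signalling genes were called at the rate of all genes, 19.4% of 31, with 3 higher and 3 lower and a median log2 difference of 0.095. Traf3, a ligase gene of the TRIF branch, averaged 144 ± 55.9 CPM for islet and 32.1 ± 3.38 CPM for fat macrophages (log2 2.17 ± 0.33, edgeR adjusted p = 0.00279). Pik3ap1 and Irf7, an interferon regulatory factor gene, rose with log2 1.98 ± 0.42 and log2 0.99 ± 0.29 (adjusted p = 0.0120 and 0.0415). The kinase gene Map3k8, Birc3 and the kinase gene Ripk1 fell with log2 -1.34 ± 0.35, log2 -1.24 ± 0.34 and log2 -0.91 ± 0.27 (adjusted p = 0.0269, 0.0325 and 0.0479). With any single fat library left out, 1 of the 31 was higher and 0 lower. The count of higher genes was 5 without islet replicate 4 and 7 without islet libraries 2 and 4, and that of lower genes was 1 without islet replicate 2 and 5 without islet replicate 6.

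Negative regulators moved in both directions, with 7 of 18 tested genes higher and 4 lower and a median log2 difference of 0.54. The share called was 61.1%, against 19.4% of all genes tested, in a list chosen with earlier results known. Axl, which encodes a receptor kinase that damps TLR signalling, averaged 1673 ± 185 CPM for islet and 175 ± 14.5 CPM for fat macrophages (log2 3.26 ± 0.28, edgeR adjusted p = 1.84e-04). The deubiquitinase gene Otulin, Tnip1, whose product binds A20, and the kinase gene Lyn rose with log2 1.82 ± 0.31, log2 2.44 ± 0.49 and log2 0.83 ± 0.24 (adjusted p = 0.00451, 0.00904 and 0.0411). Dusp1, which encodes a phosphatase of MAP kinases, averaged 378 ± 82.3 CPM for islet and 3168 ± 249.7 CPM for fat macrophages (log2 -3.07 ± 0.32, adjusted p = 4.06e-04). Nfkbia, which encodes the NF-kappaB inhibitor IkappaB-alpha, Il1rl1, the interleukin 33 receptor gene, and Pdlim2 fell with log2 -1.44 ± 0.25, log2 -4.32 ± 0.97 and log2 -1.62 ± 0.40 (adjusted p = 0.00454, 0.0152 and 0.0224). A list of 8 immediate early genes took 0.169% to 0.769% of counts in islet and 1.72% to 2.10% in fat, and its part in these differences was not tested. Of that list Jun and Atf3 overlapped between the tissues, while the other genes, Fos among them (log2 -3.67 ± 0.39, adjusted p = 4.66e-04), lay lower in every islet library. The 7 higher genes were 4 with RLE size factors, with the replicate block or without islet replicate 2, and 2, 2 and 3 without fat replicates 2, 4 and 6, where the 4 lower ones were 2 without fat replicate 2 or 6.

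Among 11 NLR effector genes, Il1b rose and none fell (1 at an unadjusted p under 0.05, 2 by DESeq2 and 1 by limma voom). The share called was 9.09%, against 19.4% of all genes tested. Il1b, the gene of the cytokine that inflammasomes process, was at 637, 380.1 and 439 CPM in islet libraries 2, 4 and 6, against 68.2, 24.4 and 44.3 CPM in fat libraries 2, 4 and 6. Every islet library lay well above the fat libraries, and the means were 485 ± 135 CPM for islet and 45.6 ± 21.9 CPM for fat macrophages (SD, n = 3 each; log2 3.41 ± 0.42, edgeR adjusted p = 0.00104). Without islet replicate 4 or 6, 2 of the 11 were higher, and 2 were lower without islet replicate 6 or without islet libraries 2 and 4. The list's median log2 difference was 0.20.

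**Figure D5:**
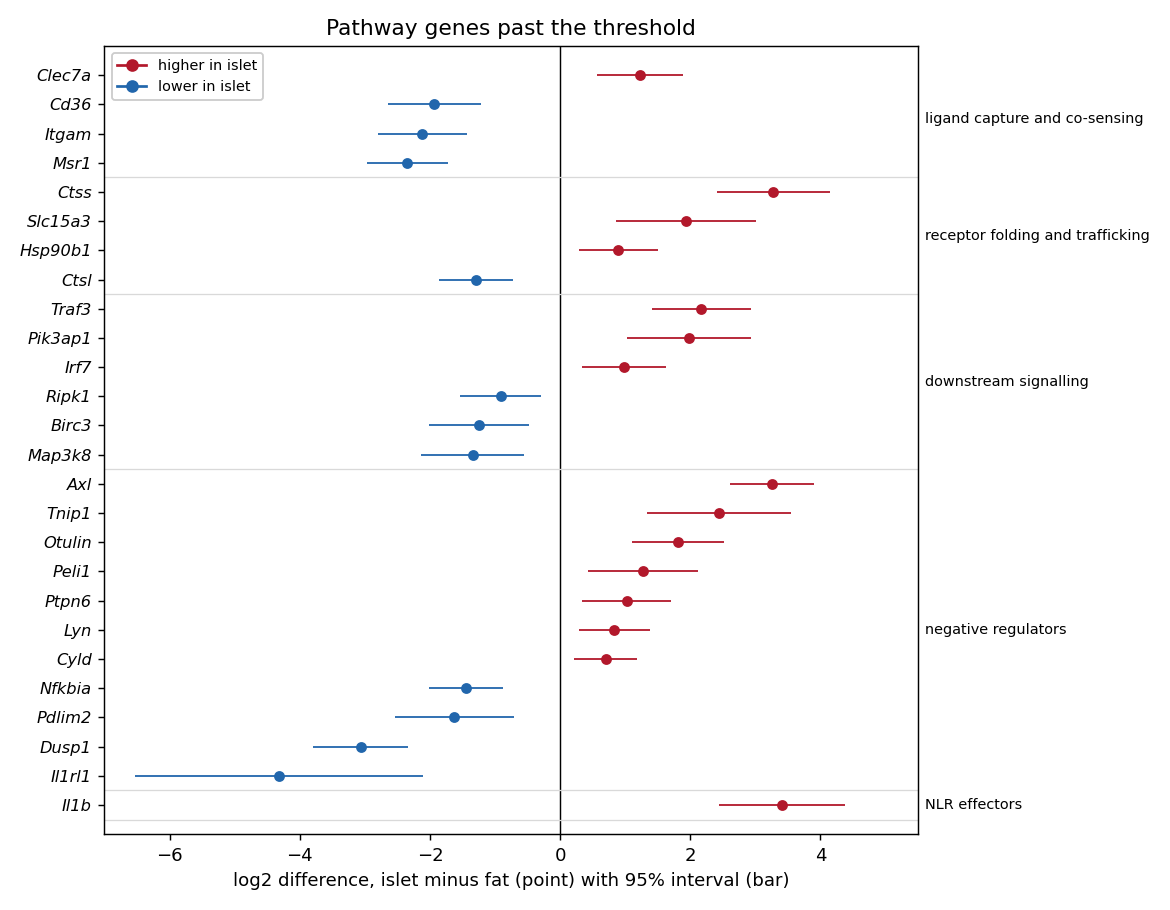
Fitted log2 difference, islet minus fat, of the 15 pathway genes higher and the 11 lower in islet, by list, with bars for the 95% interval and colour for direction. They spread from -4.32 (Il1rl1) to 3.41 (Il1b), and both directions occur in each list but that of NLR effectors.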

How the data were processed

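The labels describe total RNA of sorted macrophages, 10 ng of it made into stranded libraries after removal of ribosomal RNA. The deposited values are raw counts, whole reads per gene that the authors did not normalize. STAR, featureCounts from Subread 1.6.4 and build GRCm38 are named in the submitters' processing notes, while annotation and strandedness of counting were not given in the sources used here. Genes were matched to GENCODE M21 by identifier (50376 of 50600, and all 56 members) for positions and exon lengths.

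Counts were filtered (filterByExpr, 10 counts at the median library size, or 1.39 CPM), scaled by TMM and tested with edgeR 4.0.16 (R 4.3.3, quasi-likelihood, islet minus fat, 3 libraries each), with Benjamini-Hochberg adjustment over 12152 genes and a threshold of 0.05. Of 14 alternatives, DESeq2 1.42.0 and limma 3.58.1 were 2. Depth was 4089980 to 9235591 counts, and floors of 3 counts cover counting error only. Numbers 2, 4 and 6 stand with batch labels of the same numbers in both tissues and the design calls the males autologous, which was read as the same animal or pool behind equal numbers. The main test left this pairing out, and a fit with the replicate number as a block is among the alternatives. Deviations from each tissue's mean, correlated across genes, gave 0.0460, 0.0630 and -0.00759 between equal numbers and -0.142 to 0.103 between unequal ones.

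All tested members are given, those past the threshold in full. In each pathway list up to 4 genes a direction with the smallest adjusted p are named. Members, lists and motifs were chosen with earlier results of these data known. Of 85 listed pathway symbols, 84 were found.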

Additional observations from a re-analysis of the deposited data

How the results depend on the processing

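Of the 11 changed genes, 7 (Tlr2, Tlr5, Tlr9, Tlr12, Tlr13, Irak2 and Ticam1) passed in all 14 alternatives, and 11 genes that did not pass did so under at least 1. Over 518 values of single genes, 457 kept direction and side of the threshold, 16 no longer passed, 14 newly passed and 31, of 11 genes that did not pass with all libraries, reversed in sign. Of those reversed, 1 passed the threshold, Nlrc4 at log2 -0.91 with islet libraries 2 and 4 left out. That setting also gave Nlrp1a -1.04, Nlrp1c-ps -0.88, Tlr3 -0.81, Nlrc3 -0.79 and Unc93b1 -0.14. Tlr6 was at -0.036 with DESeq2, -0.029 with RLE size factors, -0.0288 with no filter, -0.013 without ribosomal RNA genes and -0.049 with the block. The block also gave Nlrc3 -0.30 and Tirap -0.18, and limma voom gave Nlrc3 -0.47 and Nlrp1a -0.047. Leaving out 1 library at a time gave log2 differences of -0.087 to 0.82 for Cd14, -1.09 to 0.55 for Nlrc3, -0.084 to 0.70 for Nlrc4, -0.18 to 0.64 for Nlrp1a, -0.013 to 0.58 for Nlrp1b, -0.12 to 0.61 for Nlrp1c-ps, -0.44 to 0.60 for Tirap, -0.18 to 0.0056 for Tlr4 and -0.26 to 0.37 for Tlr6. With islet libraries 2 and 4 left out, the lone islet library is taken to vary as fat libraries do. This gave 2064 genes higher and 2916 lower (1090 and 1271 otherwise), 11 members higher and 7 lower (7 and 4 otherwise), and 24 pathway genes higher (15 otherwise), and it moved the median of all genes by -0.11. Leaving out 1 library at a time gave 466 to 1649 genes higher and 593 to 2022 lower, 6 to 9 members higher and 1 to 5 lower, and 5 to 17 pathway genes higher and 6 to 15 lower. With the replicate number as a block, 884 genes were higher and 1103 lower, 7 members higher and 3 lower, and 10 pathway genes higher and 10 lower. Under the block, Naip6 was the one member call that changed. With RLE size factors 10 pathway genes were higher. The causes were not tested. All 14 alternatives refit the same libraries, so passing in all of them is a description and not separate support. Tlr5 passed the filter on low counts through fat alone and Tlr12 through islet alone. Tlr5 and Tlr11 rest on 2 to 10 counts a library in islet, and Tlr12 on 0 to 8 in fat, which limits how well the size of their differences is known.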
